A study of Mus musculus with 6 samples.

Results

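Transcript levels of Nfe2l2, which encodes the transcription factor NRF2, and of 9 genes for antioxidant and detoxifying proteins (Hmox1, Nqo1, Gclm, Gclc, Txnrd1, Srxn1, Gsr, Sod1 and Sod2) were followed in embryonic mouse hearts with and without a cardiomyocyte deletion of Mrps5. The genes were taken by official symbol from a table of 26191 genes after the transcript values of each gene had been summed. All 10 were found, all 10 were at 1 FPKM or more in each of the 6 libraries, and all 10 were among the 13260 genes that passed the filter on low values and were tested. FPKM is a fragment count divided by transcript length and by the mapped fragments of the library, so that levels of different genes could be compared per length. No read counts were used here, and the depth of each library is therefore unknown.

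RNA-seq was performed on hearts of mice at embryonic day 12. The 3 control libraries came from Mrps5 fl/fl embryos, which carry both floxed alleles but no Cre, and the 3 mutant libraries from Mrps5 fl/fl; cTNT-Cre embryos. Mrps5 encodes a protein of the small subunit of the mitochondrial ribosome, and the cardiac troponin T promoter drives Cre in cardiomyocytes, so that other cells of the heart keep the gene. Since the controls lack Cre, the deletion and the presence of Cre cannot be told apart. Each library was a pool of hearts, and the p-values given here measure the spread between such pools. In whole hearts, fewer cells of a type and less RNA per cell cannot be told apart.

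NRF2 is held in the cytoplasm by KEAP1, which presents it to a ubiquitin ligase for degradation. When cysteines of KEAP1 are modified by oxidants or electrophiles, NRF2 accumulates, pairs with a small MAF protein and binds antioxidant response elements in its target genes, whereas BACH1 occupies many of the same elements as a repressor that is released by heme. Because this switch acts on the protein, the transcript level of Nfe2l2 itself does not report the activity of NRF2. Sod1 and Sod2 convert superoxide to hydrogen peroxide in the cytosol and in mitochondria and are regulated by other factors too, while Hmox1 is a target of several stress-responsive factors besides NRF2.

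The sequence of the core element, TGACNNNGC, was searched on both strands of the promoters of the genes, since it is the letter pattern that NRF2 with its small MAF partner recognises. The windows ran from 250 bases before to 50 bases after an annotated start, taken from RefSeq on build GRCm38.p6. Windows of 7 of the 10 genes were present, and 5 of these 7 genes had a match in 1 window, against 14.0% of all 27025 genes with a window and 12.4% of all 32851 windows. Hmox1, Gclc and Gsr had no window and were not searched. The stretches around the matches are shown because they are the sequences in which the element would act; capitals mark the match, which reads GCNNNGTCA where the element lies on the strand opposite to the gene.
Nfe2l2: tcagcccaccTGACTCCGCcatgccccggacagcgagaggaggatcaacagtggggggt
Gclm: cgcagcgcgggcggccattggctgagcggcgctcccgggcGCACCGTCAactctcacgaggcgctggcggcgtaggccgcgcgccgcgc
Txnrd1: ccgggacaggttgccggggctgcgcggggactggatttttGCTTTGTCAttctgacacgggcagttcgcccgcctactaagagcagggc
Srxn1: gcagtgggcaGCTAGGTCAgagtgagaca
Sod1: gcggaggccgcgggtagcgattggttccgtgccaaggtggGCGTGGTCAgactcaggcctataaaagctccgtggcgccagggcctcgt
The stretches lie at chr2:75704855-75704913 on the minus strand for Nfe2l2 and, on the plus strand, at chr3:122245383-122245471 for Gclm, chr10:82859074-82859162 for Txnrd1, chr2:152105542-152105570 for Srxn1 and chr16:90220666-90220754 for Sod1. The matches in Nfe2l2, Gclm, Txnrd1 and Sod1 lie upstream of the annotated start, and the match in Srxn1 lies 29 to 37 bases after it. The annotated start of the Txnrd1 window with the match is 1095 bases from the start of the most abundant transcript, and the window whose annotated start is 40 bases from it had no match. The windows of Nqo1 and Sod2 held no match. A match describes letters and does not show that a factor bound there.

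Mrps5 was measured first, as the deleted gene. Its FPKM was 9.65, 11.4 and 10.4 in control replicates 1 to 3 and 5.28, 7.41 and 10.4 in mutant replicates 1 to 3. Mutant replicates 1 and 2 were thus below every control, and the library labelled mutant replicate 3 was within the control range. The log2 fold change of Mrps5 was -0.44 with a standard error of 0.19 (limma, adjusted p = 0.338). Leaving that library out gave -0.66 (adjusted p = 0.0691), and leaving out mutant replicate 1 gave -0.23 (adjusted p = 0.578). The libraries also differed in blood content. The 22 measured markers of erythroid cells took 12.1% to 13.4% of the summed FPKM in the controls, 23.6% in mutant replicate 1, 10.9% in mutant replicate 2 and 22.1% in the library labelled mutant replicate 3. Of these 22 markers, 19 were above every control in mutant replicates 1 and 3 but not in mutant replicate 2 (5.10% of all tested genes). At an unadjusted p under 0.05, 8 were higher (5.57% of all tested genes), none of them at an adjusted p under 0.05. All 15 cardiomyocyte markers had lower means in the mutant, while 7293 of the 13260 tested genes had a negative log2 fold change. Of the 15 markers, 10 were lower at an unadjusted p under 0.05 (9.43% of all tested genes) and none at an adjusted p under 0.05. Their share of summed FPKM was 2.79% to 3.33% in the controls and 2.03% to 2.53% in the mutants. The 12 macrophage markers, whose cells recycle heme iron through Hmox1, took 0.00593% to 0.00713% in the controls and 0.00410% to 0.00618% in the mutants, with 2 of them under 1 FPKM in every library. Of the 8 tested macrophage markers, 1 was lower at an unadjusted p under 0.05 (9.43% of all tested genes). This was Lyz2, at 12.0, 10.1 and 9.10 FPKM in the controls and 3.94, 4.89 and 7.76 FPKM in the mutants. The shares of the endothelial, epicardial and mesenchymal, and liver marker lists overlapped between the groups. Of these lists 1 marker was higher at an unadjusted p under 0.05 (5.57% of all tested genes), and none was lower. It was the endothelial Emcn, with means of 21.4 and 25.9 FPKM in controls and mutants. By contrast, 5 of the 8 endothelial markers had lower means in the mutant. For 2 of them, Kdr and Tie1, every mutant library was below every control (13.0% of all tested genes). Lyz2, Emcn, Kdr and Tie1 were named after their values were seen, and the part of such cells in the results was not tested. The 10 genes, and the pathway genes described by name where their value or call moved, are therefore given over all 6 libraries and again without the libraries concerned, with mutant replicate 2 as the one mutant library that had Mrps5 below the controls and no excess of erythroid markers.

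Over all 6 libraries, none of the 10 genes differed at an adjusted p under 0.05, a threshold that 0.0830% of all tested genes passed. Hmox1, Gclm and Srxn1 were higher in the mutant at an unadjusted p under 0.05, a direction in which 5.57% of all tested genes passed, and none was lower, against 9.43% of all genes. Hmox1, Txnrd1 and Srxn1 had every mutant library above every control library, against 7.74% of all genes in that direction, and no member had every mutant library below every control, against 13.0%. The mean log2 difference was positive for 9 of the 10 genes and negative for Sod2, with a median of 0.15 beside -0.02 for all tested genes. Nfe2l2, Nqo1, Gclm, Gclc and Sod1 shared another arrangement, in which mutant replicates 1 and 3 lay above every control but mutant replicate 2 did not, which was found in 5.10% of all genes. The median difference of the 10 genes from the control mean was 0.23 in mutant replicate 1, 0.04 in mutant replicate 2 and 0.32 in the library labelled mutant replicate 3 (log2 scale), and that of all tested genes was -0.04, 0.03 and -0.05. The 10 genes were chosen with earlier results of these data known, so these counts and medians describe them and do not test them as a set.

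**Figure D1:**
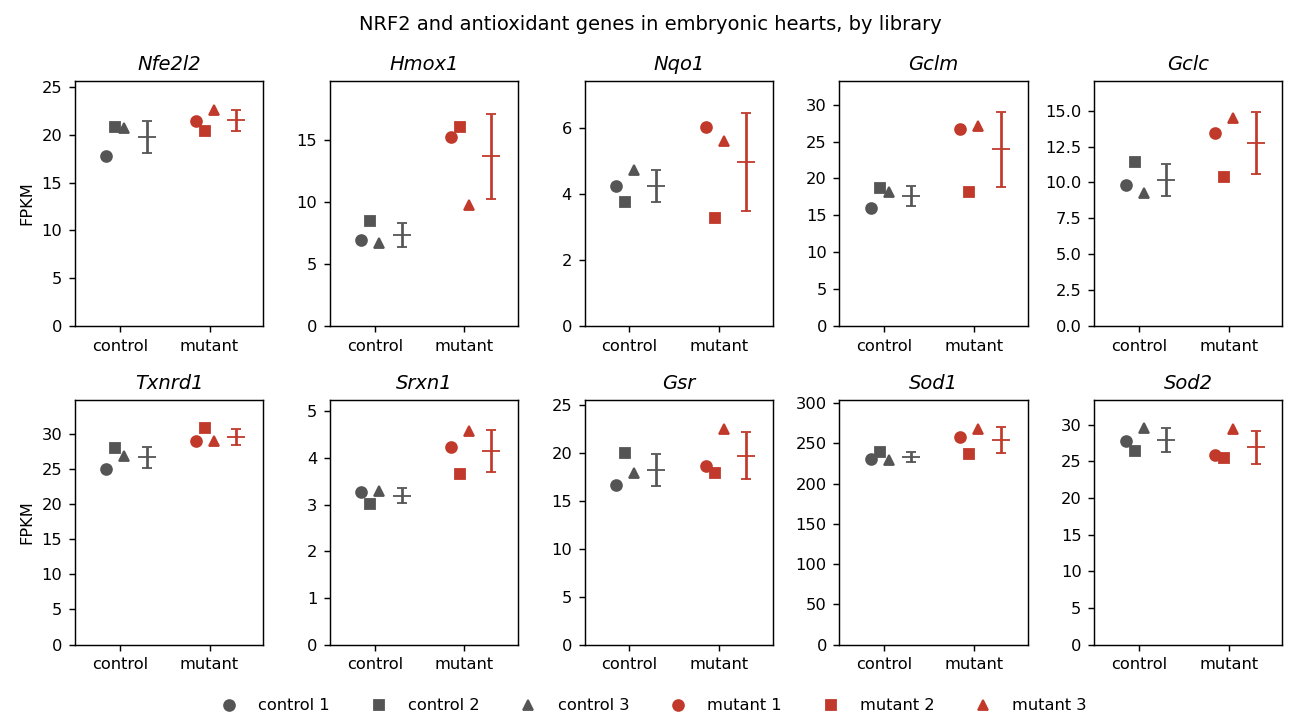
FPKM of the 10 genes in each of the 3 control and 3 mutant libraries (y axis, from 0, with a scale of its own for each gene), with the mean and SD of each group beside the points. Hmox1 is high in mutant replicates 1 and 2, whereas Gclm, Gclc and Nqo1 are high in mutant replicates 1 and 3 and within or below the control range in mutant replicate 2.

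Nfe2l2 (ENSMUSG00000015839), on the minus strand of chromosome 2, was expressed at 17.8, 20.9 and 20.7 FPKM in the controls and 21.5, 20.4 and 22.6 FPKM in mutant replicates 1 to 3. The groups overlapped, with mutant replicate 2 between the controls. The means were 19.8 ± 1.70 and 21.5 ± 1.11 FPKM (SD, n = 3 each), and the log2 fold change was 0.12 (95% interval -0.09 to 0.33; limma, adjusted p = 0.592). The fit that omitted the library labelled mutant replicate 3 gave 0.08, and in mutant replicate 2 alone against the controls it was 0.05. A difference in the transcript of NRF2 was thus not detectable against the spread between replicates. Psmb3 and Acadvl were among the 3 genes whose values across the 6 libraries lay closest to those of Nfe2l2, out of 9041 candidates with a mean of 5 FPKM or more, with root mean square differences of 0.0277 and 0.0317 on the centred log2 scale, where Nfe2l2 itself varied by 0.0998.

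Hmox1 (ENSMUSG00000005413) encodes heme oxygenase 1, the inducible enzyme that opens the heme ring and releases iron, carbon monoxide and biliverdin. It was expressed at 6.91, 8.43 and 6.69 FPKM in the controls and at 15.2, 16.1 and 9.77 FPKM in mutant replicates 1 to 3. All 3 mutant libraries were above all 3 controls, and the highest value was in mutant replicate 2, the library with the lowest erythroid share. The means of 7.35 ± 0.947 and 13.7 ± 3.42 FPKM (SD, n = 3 each) differed 1.86-fold. On the log2(FPKM + 1) scale the fold change was 0.79 with a standard error of 0.18 (limma, unadjusted p = 0.00195, adjusted p = 0.141), the largest of the 10 genes.

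Whether Hmox1 passed the adjusted threshold depended on the library labelled mutant replicate 3, which had a control level of Mrps5. Each mutant library exceeded the control mean on the log2 scale by 0.97, 1.04 and 0.37 in turn. With that library left out, the fold change was 1.00 with a standard error of 0.12 and an adjusted p of 0.00524 (limma), in a fit in which 2.04% of all tested genes passed the adjusted threshold. Mutant replicate 2 alone exceeded the 3 controls by 1.04 (standard error 0.15, adjusted p = 0.0456), assuming that a single mutant library varies as the controls do, and 0.950% of all genes passed in that fit. With the erythroid share of each library as a covariate the estimate was 0.93 (standard error 0.21, adjusted p = 0.252). No other member passed the adjusted threshold in any of these fits. The 3 candidates with values closest to those of Hmox1 across the libraries were Lars, Eprs and Phf10, with root mean square differences of 0.0532, 0.0540 and 0.0643 beside a variation of 0.458 for Hmox1 itself. Lars and Eprs encode aminoacyl-tRNA synthetases, and Lars, for instance, was at 20.5, 22.6 and 19.5 FPKM in the controls and 40.4, 46.6 and 27.6 FPKM in mutant replicates 1 to 3.

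**Figure D2:**
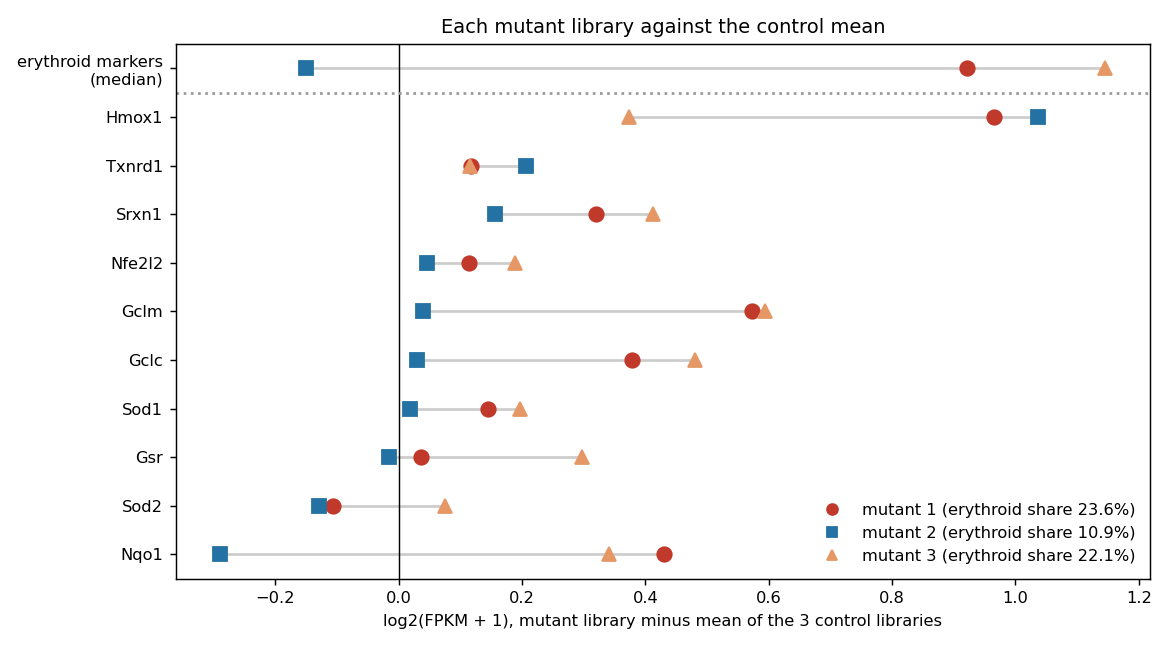
Difference of each mutant library from the mean of the 3 control libraries on the log2(FPKM + 1) scale (x axis) for the 10 genes and, at the top, for the median of the 22 measured erythroid markers. Mutant replicates 1 and 3 lie to the right of mutant replicate 2 for the erythroid markers and for Gclm, Gclc and Nqo1, whereas mutant replicate 2 has the highest Hmox1, at 1.04.

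Nqo1 (ENSMUSG00000003849) encodes a quinone reductase that is among the most widely used readouts of NRF2. It was expressed at 4.24, 3.77 and 4.72 FPKM in the controls and at 6.05, 3.28 and 5.62 FPKM in mutant replicates 1 to 3. The erythroid-rich mutant libraries were thus the highest of the 6 and mutant replicate 2 was the lowest. The log2 fold change over all libraries was 0.16 with a standard error of 0.19 (limma, adjusted p = 0.737). It was 0.39 without mutant replicate 2 (adjusted p = 0.208), -0.29 in mutant replicate 2 alone and -0.14 with the erythroid share as a covariate, so that its direction differed between fits.

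Gclm and Gclc encode the modifier and the catalytic subunit of glutamate-cysteine ligase, the rate-limiting enzyme of glutathione synthesis. Gclm (ENSMUSG00000028124) was expressed at 16.1, 18.7 and 18.2 FPKM in the controls and at 26.7, 18.1 and 27.1 FPKM in mutant replicates 1 to 3, and 91.0% of its FPKM came from 1 of its 5 listed transcripts. Gclc (ENSMUSG00000032350) was at 9.85, 11.4 and 9.23 FPKM in the controls and at 13.5, 10.4 and 14.5 FPKM in the mutants. Both subunits were therefore above every control in mutant replicates 1 and 3 and within the control range in mutant replicate 2. The log2 fold change was 0.40 for Gclm (standard error 0.15, limma, unadjusted p = 0.0285, adjusted p = 0.280) and 0.30 for Gclc (standard error 0.13, unadjusted p = 0.0577, adjusted p = 0.347).
For neither subunit did the size hold across the libraries. Without mutant replicate 2 the log2 fold changes were 0.58 and 0.43, with limma's adjusted p at 0.0518 and 0.164. In mutant replicate 2 alone they were 0.04 and 0.03, and with the erythroid share as a covariate 0.15 and 0.10. Without the library labelled mutant replicate 3 they were 0.31 and 0.20. The part of blood RNA in the differences of Gclm, Gclc and Nqo1 was not tested beyond these fits.

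Txnrd1, Srxn1 and Gsr keep protein thiols and glutathione reduced. Txnrd1 (ENSMUSG00000020250), the cytosolic thioredoxin reductase, was expressed at 25.1, 28.0 and 26.9 FPKM in the controls and 29.0, 30.9 and 29.0 FPKM in the mutants. Srxn1 (ENSMUSG00000032802), sulfiredoxin, which repairs overoxidised peroxiredoxins, was at 3.27, 3.00 and 3.29 FPKM in the controls and 4.22, 3.66 and 4.57 FPKM in the mutants. For both genes the groups did not overlap, and mutant replicate 2 was above every control, as it was for Hmox1. Their log2 fold changes were 0.15 for Txnrd1 (95% interval -0.04 to 0.33; limma, adjusted p = 0.430) and 0.30 for Srxn1 (95% interval 0.05 to 0.55; unadjusted p = 0.0255, adjusted p = 0.270).
The Txnrd1 estimate was between 0.12 and 0.21 without each mutant library in turn, in mutant replicate 2 alone and with the covariate. That of Srxn1 was 0.24 without the library labelled mutant replicate 3, 0.16 in mutant replicate 2 alone and 0.21 with the covariate, none of them at an unadjusted p under 0.05. Gsr (ENSMUSG00000031584), glutathione reductase, was at 16.7, 20.0 and 17.9 FPKM in the controls and at 18.7, 18.0 and 22.6 FPKM in the mutants. These groups overlapped, with the library labelled mutant replicate 3 alone above the controls, and the log2 fold change was 0.11 (95% interval -0.15 to 0.36; limma, adjusted p = 0.695), or 0.01 without that library.

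The superoxide dismutases did not pass the test in any fit described here. Sod1 (ENSMUSG00000022982), the cytosolic copper-zinc enzyme, was the most abundant of the 10 transcripts, at 231, 240 and 229 FPKM in the controls and 258, 236 and 267 FPKM in the mutants. Mutant replicates 1 and 3 exceeded every control and mutant replicate 2 did not, for a log2 fold change of 0.12 (95% interval -0.08 to 0.32; limma, adjusted p = 0.567), or 0.02 in mutant replicate 2 alone and 0.05 with the erythroid covariate. Sod2 (ENSMUSG00000006818), the manganese enzyme of the mitochondrial matrix, was at 27.8, 26.4 and 29.6 FPKM in the controls and 25.8, 25.4 and 29.5 FPKM in the mutants. The groups overlapped, and the log2 fold change was -0.05 (95% interval -0.26 to 0.15; adjusted p = 0.824), or -0.13 in mutant replicate 2 alone and -0.09 with the covariate, and it ranged from -0.13 to -0.01 over all alternatives. The interval for Sod2 leaves room for a fall by 0.26 or a gain of 0.15 on the log2 scale.

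Ordered by their control means in FPKM, the genes ran from Sod1 through Sod2, Txnrd1, Nfe2l2, Gsr, Gclm, Gclc, Hmox1 and Nqo1 to Srxn1. The control values of Sod2 and Txnrd1 overlapped, as did those of Nfe2l2 and Gsr and those of Gsr and Gclm, whereas each of the other neighbours was separated in all 3 control libraries. In the mutant means, Hmox1 was above Gclc, at 13.7 ± 3.42 against 12.8 ± 2.16 FPKM (SD, n = 3 each), with overlapping values.

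**Figure D3:**
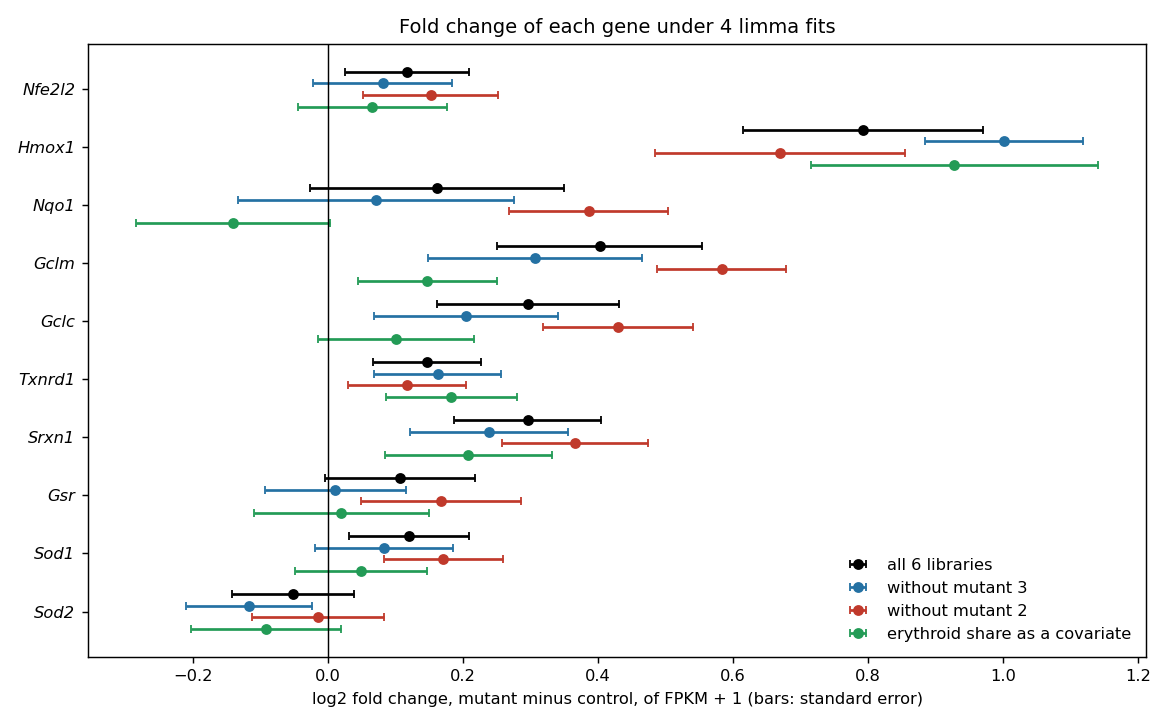
Log2 fold change of each gene, mutant minus control, on the log2(FPKM + 1) scale (x axis, bars are standard errors) over all 6 libraries, without mutant replicate 3, without mutant replicate 2 and with the erythroid share as a covariate. Hmox1 lies between 0.67 and 1.00 in the 4 fits, Gclm and Gclc shrink to 0.15 and 0.10 with the covariate, and Nqo1 crosses 0.

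The wider pathway was read from 82 further genes in 7 lists, and 75 of these reached the level needed for testing. The lists too were chosen with earlier results of these data known, so their counts beside the shares of all tested genes are a description and not a test. At an unadjusted p under 0.05, 14 were higher (5.57% of all tested genes) and 9 were lower (9.43% of all tested genes), and 1, Slc3a2, rose at an adjusted p under 0.05. The mutant libraries lay above every control for 11 of the 75 genes (7.74% of all tested genes) and below every control for 9 (13.0% of all tested genes). For 15 of the 75, mutant replicates 1 and 3 were above every control and mutant replicate 2 was not (5.10% of all tested genes). The median log2 fold change was 0.05. With the erythroid share as a covariate, 8 of the 75 were higher (5.14% of all tested genes) and 5 were lower (5.31% of all tested genes) at an unadjusted p under 0.05, and none passed the adjusted threshold. In the same fit 1 of the 10 member genes, Hmox1, was higher and none was lower.

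Of the 11 regulators and partners of NRF2, 3 were higher at an unadjusted p under 0.05 and none was lower. Among all tested genes, 5.57% were higher and 9.43% lower. Sqstm1, the p62 receptor that binds KEAP1 and delivers it to autophagy, was at 44.1, 42.8 and 51.6 FPKM in the controls and 67.6, 64.8 and 54.1 FPKM in the mutants, with a log2 fold change of 0.42 (limma, adjusted p = 0.172). Among the small MAF partners, Maff was at 2.08, 2.51 and 2.55 FPKM in the controls and 5.09, 4.30 and 2.75 FPKM in the mutants. Its log2 fold change was 0.55 (adjusted p = 0.228) and 0.65 in mutant replicate 2 alone. Of its 14 alternatives, 13 did not pass the adjusted threshold (adjusted p up to 0.547). The 1 that did was the fit that omitted the library labelled mutant replicate 3, at 0.75 (adjusted p = 0.0315). As for Hmox1, the value of that library was nearest the controls for both Sqstm1 and Maff. Mafk and Mafg, the other small MAF genes, had log2 fold changes of 0.41 (adjusted p = 0.201) and 0.27 (adjusted p = 0.530). Neither the sensor nor the repressor passed the test, with Keap1 at -0.12 (adjusted p = 0.611) and Bach1 at 0.24 (adjusted p = 0.366). In mutant replicate 2 alone these values were -0.27 and 0.42, and with the erythroid covariate -0.23 and 0.36, while Mafk was at 0.26 and Mafg at 0.17 in mutant replicate 2 alone, none of them at an adjusted p under 0.05.

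Of 18 tested genes for glutathione synthesis and use, 3 were higher and 4 lower at an unadjusted p under 0.05, against 5.57% and 9.43% of all tested genes. Slc3a2 encodes the heavy chain that anchors several amino acid transporters in the plasma membrane, among them the cystine importer that feeds glutathione synthesis. It rose from 25.2, 26.2 and 25.4 FPKM in the controls to 63.6, 54.9 and 47.3 FPKM in the mutants, a log2 fold change of 1.07 with a standard error of 0.11 (limma, adjusted p = 0.0185). The size of the difference in Slc3a2 was 0.97 to 1.18 under all 15 alternatives, but 7 of them ended the call. Its adjusted p was 0.0759 to 0.115 when any 1 of the 3 controls was left out (0.115 without control replicate 1, 0.0781 without replicate 2 and 0.0759 without replicate 3), 0.0616 with a replicate block, 0.108 with the erythroid covariate, 0.125 with no filter on low values and 0.0953 with the most abundant transcript. Slc7a11, the light chain of the cystine importer, did not pass the filter on low values and had no test in this fit. Its FPKM was 0.0485, 0.0940 and 0.0999 in the controls and 2.27, 2.60 and 0.835 in the mutants, so that every mutant library was above every control and the library labelled mutant replicate 3 was again the lowest of the mutants. Without the filter, its log2 fold change was 1.37 with a standard error of 0.25 (limma, unadjusted p = 0.00144, adjusted p = 0.272).
Gpx1 and Gpx4, both glutathione peroxidases, were above every control in mutant replicates 1 and 3 and not in mutant replicate 2. Gpx1, the abundant cytosolic enzyme, was at 353, 350 and 396 FPKM in the controls and 678, 319 and 616 FPKM in the mutants. Its log2 fold change of 0.48 (adjusted p = 0.419) became 0.02 with the covariate, -0.20 in mutant replicate 2 alone and 0.82 without mutant replicate 2 (adjusted p = 0.0345). In that last fit, which kept only the erythroid-rich mutant libraries, 121 of the 13260 tested genes passed the adjusted threshold. Gpx4, which reduces lipid peroxides, had a log2 fold change of 0.16 (adjusted p = 0.483), which became 0.04 with the covariate and -0.01 in mutant replicate 2 alone. Mgst1, a microsomal glutathione transferase, was lower by a log2 fold change of -0.31 (adjusted p = 0.187), and Glrx5, a mitochondrial glutaredoxin needed for iron-sulfur clusters, was higher by 0.47 (adjusted p = 0.261), by 0.21 with the covariate and by 0.10 in mutant replicate 2 alone.

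In the thioredoxin and peroxiredoxin system, 1 of 16 genes was higher and 3 were lower at an unadjusted p under 0.05. The shares of all tested genes were 5.57% and 9.43%. Sesn2, a stress-responsive sestrin, was at 2.77, 3.19 and 2.49 FPKM in the controls and 10.9, 9.43 and 4.95 FPKM in the mutants. Its log2 fold change of 1.25 (standard error 0.24, limma, adjusted p = 0.106) became 1.55 in the fit that omitted the library labelled mutant replicate 3, at an adjusted p of 0.000824. It was 1.455 in mutant replicate 2 alone. Of its 15 alternatives, 13 did not pass the adjusted threshold, with an adjusted p of up to 0.366. Txnip, an inhibitor of thioredoxin, was at 52.3, 40.8 and 50.1 FPKM in the controls and 24.8, 31.2 and 29.0 FPKM in the mutants. All 3 mutant libraries were below all controls, with a log2 fold change of -0.73 (adjusted p = 0.0779) and of -0.59 in mutant replicate 2 alone. The adjusted p of Txnip was 0.0419 in the fit that omitted the library labelled mutant replicate 3. Msrb2, a mitochondrial methionine sulfoxide reductase, had a log2 fold change of -0.44 (adjusted p = 0.168) and of -0.46 in mutant replicate 2 alone. In the same fit without the library labelled mutant replicate 3 it was -0.54 (adjusted p = 0.0476). For each of these 2 genes, 14 of 15 alternatives did not pass the adjusted threshold, with an adjusted p of up to 0.334 for Txnip and 0.456 for Msrb2.
The thioredoxin and peroxiredoxin transcripts themselves did not pass the test. Txn1 had a log2 fold change of -0.09, Prdx1 of -0.17 and the mitochondrial Prdx3 of 0.20, or -0.16, -0.0012 and 0.04 in mutant replicate 2 alone. Prdx2, a major protein of red cells, was at 267, 293 and 287 FPKM in the controls and 416, 269 and 433 FPKM in the mutants, and its log2 fold change of 0.37 (limma, adjusted p = 0.373) became 0.06 with the erythroid covariate. Cat, catalase, was at 34.0, 34.4 and 37.0 FPKM in the controls and 45.9, 34.2 and 43.5 FPKM in the mutants, for a log2 fold change of 0.21 (adjusted p = 0.426) that became 0.04 with the covariate and -0.04 in mutant replicate 2 alone, and Sod3, the extracellular dismutase, stayed below the filter in every library.

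Of the 8 genes for heme and iron handling, 3 were higher at an unadjusted p under 0.05 and none was lower, against 5.57% and 9.43% of all tested genes. For 5 of the 8, mutant replicates 1 and 3 were above every control and mutant replicate 2 was not (5.10% of all tested genes). Blvrb, which reduces biliverdin in red cells, was at 55.4, 59.3 and 50.3 FPKM in the controls and 98.7, 52.4 and 114 FPKM in the mutants, with a log2 fold change of 0.61 (limma, adjusted p = 0.316), -0.07 in mutant replicate 2 alone and 0.14 with the covariate. Without mutant replicate 2, Blvrb was at 0.94 with an adjusted p of 0.0254, in a fit in which 121 of the 13260 tested genes passed the adjusted threshold. Fech, the last enzyme of heme synthesis, and Ftl1, the ferritin light chain, had log2 fold changes of 0.55 and 0.36 (adjusted p = 0.326 and 0.318), with Ftl1 uncertain because near-identical pseudogene copies exist. In mutant replicate 2 alone Fech was at -0.09 and Ftl1 at 0.08, and with the covariate they were at 0.11 and 0.17, whereas Fech was at 0.87 without mutant replicate 2 (adjusted p = 0.0185). Fth1, the ferritin heavy chain, named after its values were seen, was the third gene of the list past the adjusted threshold in that fit, at 0.84 (adjusted p = 0.0427) beside 0.53 over all 6 libraries (adjusted p = 0.357) and -0.09 in mutant replicate 2 alone.

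The genes that supply NADPH, which the reductases above consume, gave 3 higher and 1 lower of 11 at an unadjusted p under 0.05. Of all tested genes, 5.57% were higher and 9.43% lower. Mthfd1l, of mitochondrial folate metabolism, was at 11.0, 11.8 and 9.79 FPKM in the controls and 15.3, 16.7 and 14.5 FPKM in the mutants (log2 fold change 0.48, limma, adjusted p = 0.128). Tkt, the transketolase of the pentose phosphate pathway, was 0.30 higher (adjusted p = 0.188) and Pgls, an earlier enzyme of the same pathway, had a log2 fold change of -0.25 (adjusted p = 0.293). In mutant replicate 2 alone Mthfd1l was at 0.58, Tkt at 0.29 and Pgls at -0.17. Over all 15 alternatives they ranged from 0.41 to 0.60, from 0.26 to 0.37 and from -0.77 to -0.17. Among 9 tested further NRF2 target genes, 1 was higher and 1 lower at an unadjusted p under 0.05, beside the same shares of all tested genes. These were Abcc1, an exporter of glutathione conjugates, at 0.36 (adjusted p = 0.279), and Nqo2, a relative of Nqo1, at -0.35 (adjusted p = 0.199), which in mutant replicate 2 alone were at 0.45 and -0.17.

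**Figure D4:**
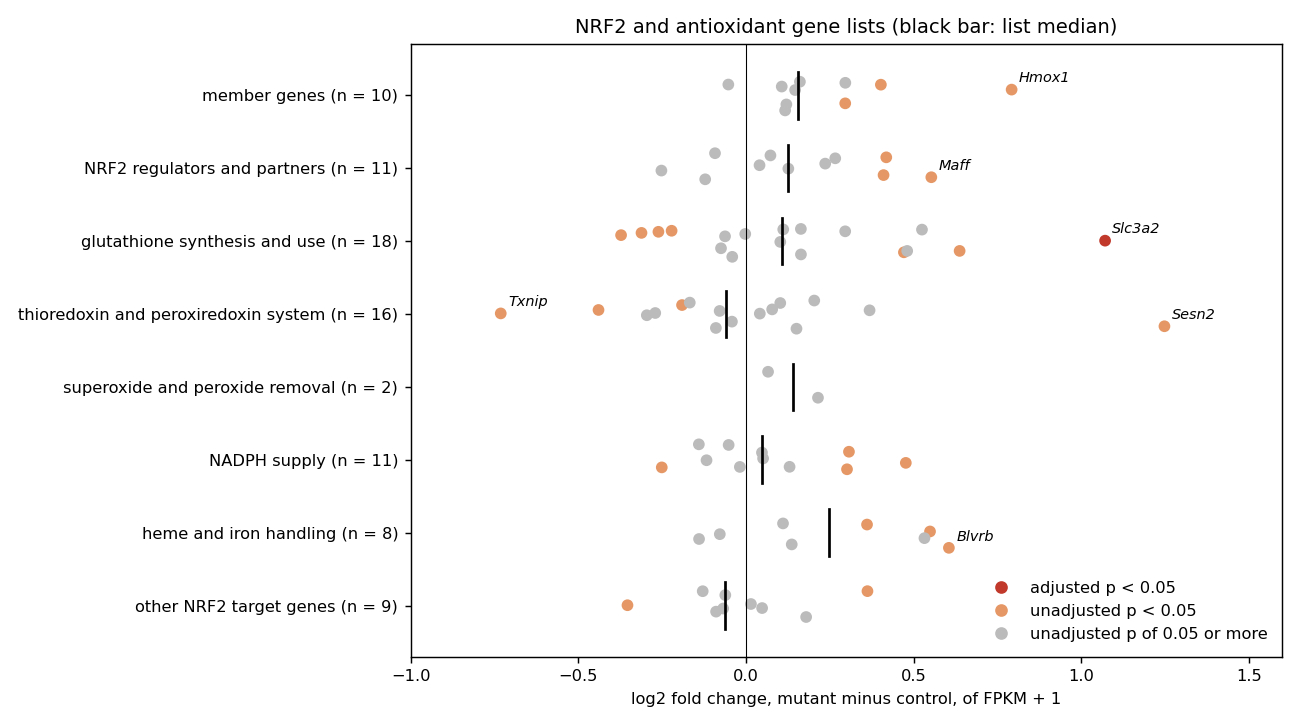
Log2 fold change, mutant minus control, on the log2(FPKM + 1) scale (x axis) of the 10 genes and of the tested genes in the 7 pathway lists, coloured by limma's p, with a black bar at each list's median. Slc3a2, at 1.07, is the gene past the adjusted threshold, and in every list but the superoxide and peroxide one some genes lie on each side of 0.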

How the data were processed

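RNA-seq of pooled embryonic hearts was deposited by the authors as FPKM per transcript, 60776 transcripts in 6 libraries, with replicates kept apart. The submitters' processing notes name Bowtie2 2.2.8, HISAT2, StringTie 1.3.1, Cuffdiff 2.1.1 and build mm9, with no role given. No read counts were used, so no count test, depth or counting interval was possible. Transcript FPKM were summed per gene without identifier versions, which merged 8 genes. Genes at 1 FPKM or more in at least 3 of 6 libraries were kept. Values of log2(FPKM + 1), a scale that understates changes of low genes, were compared with limma 3.58.1 in R 4.3.3 (lmFit, eBayes with trend, 2-sided, Benjamini-Hochberg over 13260 genes), as tested on simulated data. An exact permutation test of 3 against 3 cannot go below p = 0.1 and was not used. Alternatives changed the pseudocount, filter, scaling, transcript summary, covariate, block and libraries. The members and lists were chosen with earlier results of these data known. Pathway genes were named by a fixed set plus up to 3 per list with the smallest unadjusted p under 0.05. Genes like Nfe2l2 and Hmox1 were the 3 with the smallest root mean square difference of centred log2 values, of which 1 is not reported here. Promoter sequences and their coordinates came from RefSeq, build GRCm38.p6, and were not combined with the FPKM.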

Additional observations from a re-analysis of the deposited data

How the results depend on the processing

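The median log2 fold change of the 10 genes stayed positive under all 15 alternatives, between 0.04 and 0.27, and of 148 single-gene results under alternatives 143 kept their direction and their side of the adjusted threshold. Hmox1 passed the adjusted threshold without the library labelled mutant replicate 3 and in mutant replicate 2 alone, over a range of log2 fold changes of 0.67 to 1.04 and of adjusted p of 0.00524 to 0.445. The direction reversed for Nqo1 in mutant replicate 2 alone, at -0.29, and with the erythroid covariate, at -0.14, and for Gsr in mutant replicate 2 alone, at -0.015; the cause was not tested. The number of members at an unadjusted p under 0.05 was 3, and 1 in mutant replicate 2 alone, 1 with the erythroid covariate, and 1 to 5 when each library was left out in turn, with 1 without mutant replicate 1, 5 without mutant replicate 2 and 1 without the library labelled mutant replicate 3. All of these were higher, a direction in which 6.42% of all tested genes passed in mutant replicate 2 alone, 5.14% with the covariate, and 4.12%, 6.58% and 6.42% without mutant replicates 1, 2 and 3. The number of genes called among all tested was 11, against 6 with no filter on low values, 4 with the most abundant transcript of each gene, 7 with the erythroid covariate, 126 in mutant replicate 2 alone and 5 to 270 when each library was left out, the highest without the library labelled mutant replicate 3. Of all genes at an unadjusted p under 0.05, 37.1% were higher in the main fit, 47.9% after rescaling without erythroid markers and 49.8% after median of ratios scaling, which moved the median of all genes from -0.02 to 0.00 and 0.01. Nqo1 and Srxn1 had no value under the filter at a mean of 5 FPKM. Same-numbered libraries of the groups deviated together with r of 0.217, 0.111 and 0.0901 over 13260 genes, and each correlated best with its own number, a hint from the data and not the design; a block on the replicate number left 4 genes called, while 3 members were higher at an unadjusted p under 0.05, against 5.75% of all tested genes, and no member's call changed.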
